A study of Glycine max with 6 samples.

Results

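In leaves of drought-stressed soybean (Glycine max), 91 of the 66184 genes on the array, or 0.137%, were at least 8-fold lower than in well-watered leaves with no overlap between plants. They were chosen by this difference. The mean of the 3 drought arrays minus the mean of the 3 well-watered arrays had to be -3 or less on the log2 scale, and the highest drought value had to lie below the lowest well-watered value. By these criteria 97 genes, or 0.147% of the array, qualified, and 6 of them were left out of the description by the same rule. Among all genes, 17.4% had every drought value below every well-watered value, whatever the size of the difference. The falls below therefore state how the genes were picked and are given without a test. The same criteria turned round took 240 genes that were at least 8-fold higher in drought.

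All plants were of cultivar Williams 82 in full bloom (the R2 stage), and RNA came from the third trifoliate leaf counted from the shoot tip. The drought plants, numbered 11, 12 and 13, had been without water for 5 days, until soil moisture was down to 5%. The well-watered plants, numbered 1, 3 and 4, had received water as usual. Plants stood 3 to a pot, and the labels speak of 1 pot per treatment without saying whether plants of a treatment shared it. Pot and treatment therefore cannot be told apart, and any p-value may cover no more than the variation among neighbouring plants. The arrays were Affymetrix Soybean Gene 1.0 ST arrays, each with 1 value per gene. Each value is a gene's log2 expression after its own median over the 6 arrays was subtracted. The level of one gene thus cannot be set against that of another, and the tissue could not be checked against leaf markers.

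Leaves that run short of water close their stomata, stop expanding and fix less carbon, and many genes that serve growth, photosynthesis and cell wall loosening are known to be turned down under such conditions. Abscisic acid, the hormone that signals water shortage, drives much of this response and turns other genes up. In RNA from whole leaflets, fewer cells of a type and less RNA per cell cannot be told apart, so a lower value here is a lower share of the leaf's RNA.

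The 91 falls spread over a wide range of sizes. Their median log2 difference was -3.44, or 10.8-fold lower in drought, beside a median of 0.02 over all genes. At the upper end 16 genes were at least 16-fold lower, 22 lay between 11.3-fold and 16-fold, and the other 53 lay between 8-fold and 11.3-fold. The SE of a difference had a median of 0.24 and ran between 0.16 and 0.78 (n = 3 per group). All 91 were called lower by limma, which means an adjusted p under 0.05 and at least a 2-fold change, where 4.63% of all genes were called lower. The methods' t-test at the same criteria called 86 of the 91, beside 3.08% of all genes. Nothing is read from these counts, because the choice of the genes used the same contrast.

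**Figure D1:**
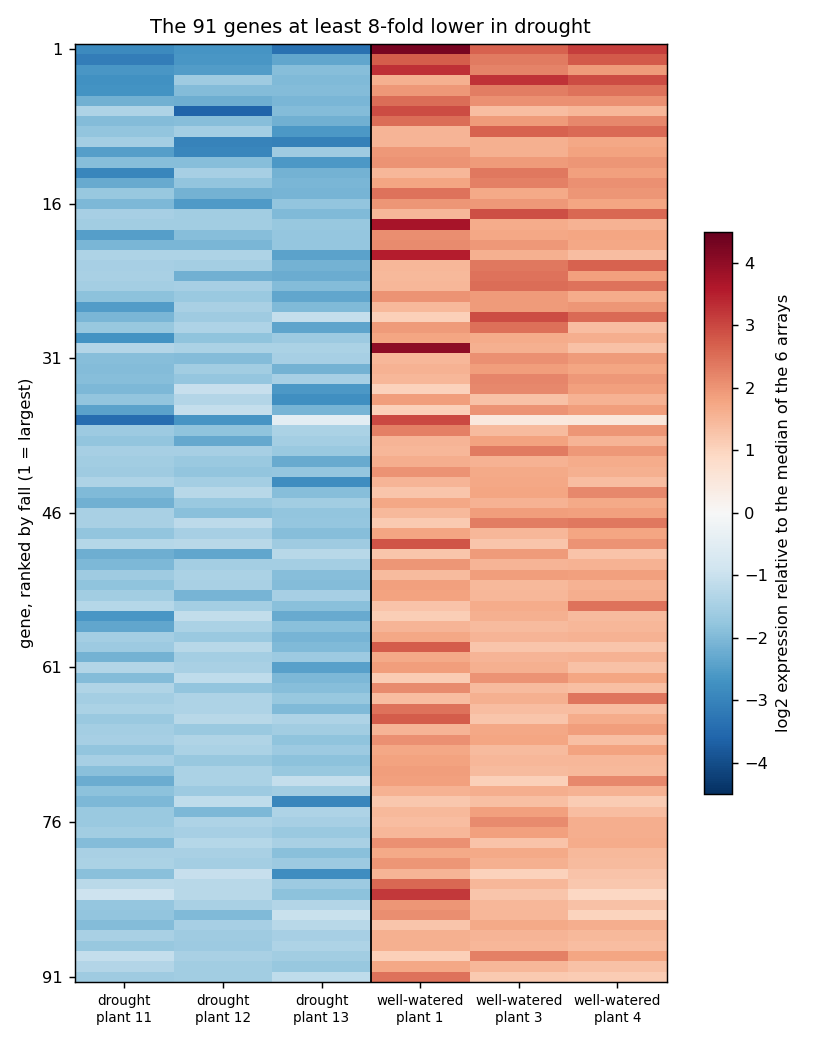
Log2 expression relative to the median of the 6 arrays, coded by colour, for each of the 91 genes (rows, largest fall at the top) in the 3 drought and the 3 well-watered plants (columns). All drought cells are below 0 and all well-watered cells above 0, a separation that the choice of the genes fixed, and the darkest red cells are those of well-watered plant 1.

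Glyma17g32100 had the largest fall. Its log2 values were -2.88, -2.66 and -3.34 in drought plants 11, 12 and 13, against 4.29, 2.66 and 3.13 in well-watered plants 1, 3 and 4. The difference of -6.32 ± 0.36 (SE, n = 3 per group) makes it 79.6-fold lower in drought, and well-watered plant 1 stood highest. Glyma11g12410 followed at -5.29 ± 0.22, or 39.2-fold lower, with -3.10, -2.61 and -2.35 in drought and 2.72, 2.35 and 2.76 in well-watered plants. Its plants lay within 0.76 of each other in drought and within 0.41 in well-watered leaves, so that no single plant made the difference.

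The next 4 genes complete the 6 largest falls. Glyma19g43820 had -2.60, -2.51 and -1.91 in drought, against 3.28, 2.23 and 1.91 in well-watered plants, a difference of -4.81 ± 0.33 (SE). Well-watered plant 1 was again the highest. Glyma06g48260 had -2.739, -1.612 and -1.999 in drought and 1.61, 3.24 and 2.95 in well-watered plants, a difference of -4.72 ± 0.41. Here well-watered plant 1 was the lowest of its group. Glyma04g37690 had -2.68, -1.96 and -1.95 in drought and 1.95, 2.29 and 2.45 in well-watered plants, a difference of -4.43 ± 0.23. Glyma19g05290 was the most even of these, with -2.16, -2.19 and -2.05 in drought and 2.52, 2.05 and 2.06 in well-watered plants, a difference of -4.35 ± 0.18. These genes lie outside the shortened annotation used here and are given by identifier alone.

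A description was at hand for 1 of the 91 genes. The study annotated genes across the genome, but only a shortened copy of its annotation was used here. That copy covered 1849 genes, all among the 3138 array genes of chromosome 1, and that chromosome held 2 of the 91. The described gene, Glyma01g34300, is highly similar to the RuBisCO-associated protein of soybean, a protein related to chitinases, the enzymes that cut chitin. It had -1.06, -1.45 and -1.55 in drought, against 1.06, 2.28 and 1.79 in well-watered plants, which is a difference of -3.07 ± 0.29 (SE) or 8.38-fold lower. The lowest well-watered value was that of plant 1. Without well-watered plant 3 the difference was -2.78 and without drought plant 13 it was -2.97, both short of 8-fold.

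Genes of chromosome 1 whose description names a chitinase were not called lower. They are grouped by that word alone, and their kinship to Glyma01g34300 was not tested. Glyma01g36480, similar to the basic chitinase of Arabidopsis, a defence protein, had 1.02, 1.60 and 1.69 in drought, against -1.95, -1.02 and -1.23 in well-watered plants. It rose by 2.84 ± 0.27 on the log2 scale (limma, adjusted p = 6.97e-05). Glyma01g06720, similar to an acidic endochitinase, had a difference of -0.41 ± 0.17 and was not called (adjusted p = 0.126).

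Among the 6 genes left out were 5 of the 127 hormone-related genes that the study listed, and 1 of these 5 was also among 46 listed NAC family or quantitative PCR genes. With these left out, none of the 91 is on those lists, which is a product of the rule. On the array 214 probe sets had values identical to those of another one in every sample, and none of the 91 was among them.

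The criterion of 8-fold cut through a continuous run of values. Just inside it stood Glyma01g34300 at -3.07, Glyma02g35630 at -3.04 and Glyma04g40000 at -3.02. Just outside were Glyma17g10420 at -2.98, Glyma01g40620 at -2.98 and Glyma09g37260 at -2.96, each with no overlap between groups. Glyma01g40620 is described as weakly similar to an Arabidopsis transcription factor of the basic helix-loop-helix family. Its values were -2.19, -0.70 and -0.89 in drought, against 0.70, 2.09 and 2.35 in well-watered plants. With a limit of -2.5 in place of -3 the criteria took 229 genes, and with -3.5 they took 38.

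The distance between the groups can also be read from the nearest plants alone. The lowest well-watered value exceeded the highest drought value by a median of 2.89 on the log2 scale, or 7.41-fold. In 32 genes this gap was at least 3, so that even the nearest pair of plants differed 8-fold, and in 3 genes it was under 2. The widest gap was that of Glyma17g32100, at 5.31 or 39.8-fold. The narrowest was that of Glyma18g06060, at 0.94 or 1.91-fold. Because each gene is centred on its median over 6 arrays, the lowest well-watered value mirrors the highest drought value in all 91 genes. Values on either side of 0 are thus no separate evidence of separation.

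**Figure D2:**
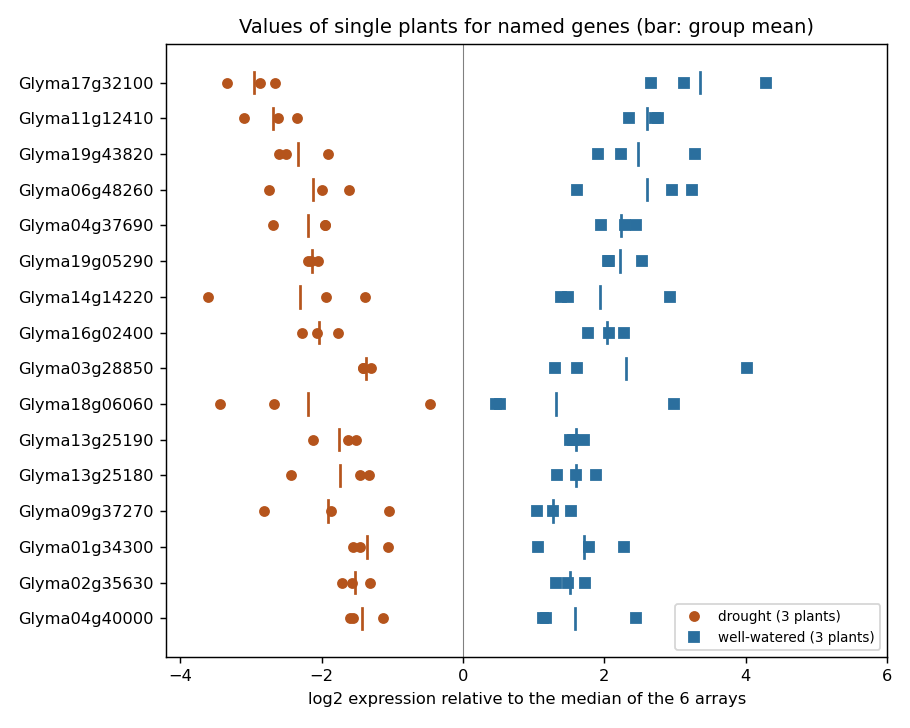
Log2 expression relative to the median of the 6 arrays in single drought plants (circles) and well-watered plants (squares) for 16 of the genes, with a vertical bar at each group mean. In Glyma18g06060 drought plant 13 and well-watered plants 3 and 4 lie within 1 log2 unit of each other, whereas in Glyma17g32100 the groups are 5.31 apart.

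Replicate plants of a group differed more in these genes than in the average gene of the array. The same values entered the choice of the genes, and signal over background is unknown for the array, so this is a description. The SD of the 3 drought plants had a median of 0.31 over the 91 genes, against 0.17 over all genes. The SD of the 3 well-watered plants had a median of 0.29, against 0.25 over all genes. Among the 240 rising genes the medians were 0.29 in drought and 0.35 in well-watered plants. Both SDs were under 0.25 in 14 of the 91 genes. The smallest SE was that of Glyma14g36420, picked out after its values were seen, with -1.47, -1.62 and -1.51 in drought and 1.61, 1.54 and 1.47 in well-watered plants. The difference between its groups was -3.08 ± 0.16.

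At the other end stood 3 genes with the widest spread within a group. Glyma18g06060 had -3.44, -2.67 and -0.47 in drought, against 2.98, 0.47 and 0.52 in well-watered plants, a difference of -3.51 ± 0.78 (SE). Drought plant 13 was close to well-watered plants 3 and 4. Glyma14g14220 had -1.39, -3.60 and -1.94 in drought, against 2.93, 1.39 and 1.49 in well-watered plants, a difference of -4.24 ± 0.55. Drought plant 12 and well-watered plant 1 lay farthest out. Glyma03g28850 had -1.30, -1.41 and -1.42 in drought, against 4.01, 1.61 and 1.30 in well-watered plants, a difference of -3.69 ± 0.56. Its drought plants were nearly equal, whereas well-watered plant 1 was over 2 log2 units above the others of its group. These 3 genes, with Glyma11g31120 and Glyma19g02810, were the 5 that the methods' t-test did not call, at Benjamini-Hochberg adjusted p-values between 0.0535 and 0.165.

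Well-watered plant 1 stood apart in many of the 91 genes. It had the highest well-watered value in 48 of them, or 52.7%, where it was the highest in 20.8% of all genes. Well-watered plant 3 was the highest in 30 and plant 4 in 13, against 56.1% and 23.1% of all genes. With each array's median subtracted, plant 1 was the highest in 55 of the 91 genes, against 34.8% of all genes. Plants 3 and 4 were then the highest in 18 each, against 36.2% and 29% of all genes. In 13 genes, or 14.3%, plant 1 was at least 1 log2 unit above both other well-watered plants, as in 0.487% of all genes. Without plant 1 the median difference of these 13 genes was -2.88 in place of -3.51, and 5 of them still reached 8-fold. Leaving out the highest well-watered plant can only shrink a fall, so the direction of this shift was fixed. The values of plant 1 entered the choice of the genes, so these shares are a description.

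The opposite was seen in 5 genes, with plant 1 at least 1 log2 unit below both other well-watered plants, as in 0.707% of all genes. They were Glyma06g48260, Glyma07g30440, Glyma17g31230, Glyma04g43470 and Glyma06g05900. All 5 stayed at least 8-fold lower without plant 1, with a median of -4.41. Leaving out the lowest well-watered plant can only deepen a fall, so this outcome was fixed in advance. No other well-watered plant was as far from its group in any of the 91 genes. Over all genes, plant 3 was at least 1 log2 unit above both others in 0.473%, close to the share of plant 1. Array weights, which are lower for arrays that scatter more over all genes, were 0.34 for plant 3. They were 0.48 for plant 1 and 3.96 for plant 4, so plant 1 was not the only well-watered array to scatter. Of the drought plants, 1 or another stood at least 1 log2 unit apart in 6 genes, among them Glyma16g29700 (plant 11 higher), Glyma12g07920 (plant 12 higher) and Glyma08g15960 (plant 13 lower). Over all genes, a given drought plant was so far above both others in 0.162% to 0.266% and so far below both in 0.106% to 0.153%. Drought plant 12 was most often the highest of its group, in 39 genes or 42.9%, against 29.7% of all genes. Drought plant 13 was most often the lowest, in 44 genes or 48.4%, against 27.3% of all genes. Over all genes it was most often the highest (40.2%). With each array's median subtracted, plant 13 was the lowest in 45 of the 91 genes. Over all genes it was then the highest in 34.6%, beside 32.4% for plant 11 and 32.9% for plant 12. Among the 240 rising genes, well-watered plant 1 was at least 1 log2 unit below both others in 12 and above both in 2.

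**Figure D3:**
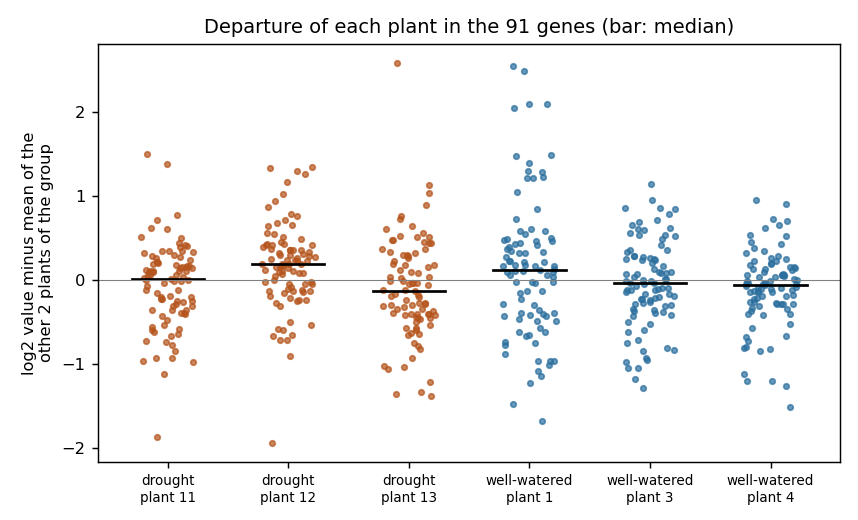
Each plant's log2 value minus the mean of the other 2 plants of its group (vertical axis) for the 91 genes (points), by plant, with a bar at the median. Well-watered plant 1 reaches above 2 in several genes and below -1 in others, and its median is 0.12. The medians of drought plants 12 and 13 are 0.19 and -0.13.

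A principal component of the within-group deviations held 52.2% of their variance in the 91 genes, with loadings of -0.80 for well-watered plant 1 and 0.43 and 0.37 for plants 3 and 4. Over all genes the first such component held 43.5%. A high value of plant 1 was also found in a gene outside the 91, picked out after its values were seen. Glyma03g28910, the sixth gene after Glyma03g28850 in identifier order, is the cytokinin oxidase gene GmCKX02, whose product breaks down the growth hormone cytokinin. It had -0.81, -0.22 and -0.57 in the drought plants, against 3.33, 0.52 and 0.22 in well-watered plants 1, 3 and 4. It was not called (limma, difference -1.89 ± 0.65, adjusted p = 0.0699). The study set its arrays beside quantitative PCR, which gave a fall of this gene in drought-stressed leaves of the same stage. The genes between Glyma03g28850 and Glyma03g28910 did not share the high value of plant 1. Plant 1 was not the highest well-watered plant in any of them, and in Glyma03g28870 it was the lowest, at -1.07. What sets plant 1 apart was not tested.

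The 91 genes were scattered over the genome. A Glyma1 identifier gives the chromosome and the order of a gene along it, and by these the genes lay on 19 of the 20 chromosomes, with none on the unplaced scaffolds. Chromosomes 6 and 8 had the most, with 10 each, followed by chromosome 13 with 9 and chromosome 4 with 8. Relative to its 3004 array genes chromosome 4 had the highest density, whereas chromosome 10 had 1 of the 91 among 3542 array genes and chromosome 20 had none among 2975. These counts were too small to be compared further and were not tested.

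Next to the 91 genes, falls were more frequent than over the array. Of the 180 genes directly before or after one of them that were not among the 91, 20 were called lower, or 11.1%, against 4.63% of all genes. Only 3, or 1.67%, were called higher, against 4.98% of all genes. The median difference of the neighbours was -0.04, close to that of all genes, and 6 were at least 4-fold lower. With the 2 nearest genes on each side, 34 of 360 were called lower, or 9.44%. The share was 11.1% at 1 gene away, 8.24% at 2 and 7.69% at 3, and it ran between 2.22% and 7.73% at 4 to 10 genes away. The methods' t-test called 7.78% of the immediate neighbours lower, against 3.08% of all genes. Without drought plant 13 or either of well-watered plants 1 and 4, limma called 18 of the 180 lower.

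The genes that rose at least 8-fold had a like surplus in the other direction. Of the 469 genes beside the 240 rising genes, 71 were called higher, or 15.1%, and 8 were called lower, or 1.71%. No test was made of either share, since neighbours are not independent of each other. The sources used here hold no sequence for these identifiers, so whether neighbours are copies of each other that bind the same probes was not tested.

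**Figure D4:**
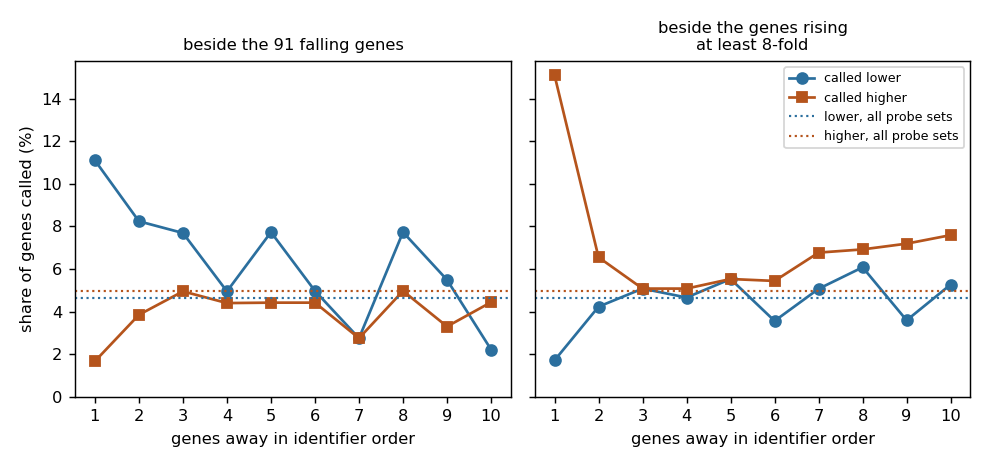
Share of genes called lower and higher in drought (percent, vertical axis) by distance in identifier order (horizontal axis) from the 91 falling genes (left) and from the 240 rising genes (right). Dotted lines mark the shares over all probe sets, 4.63% lower and 4.98% higher. The share in the same direction is highest for the immediate neighbours, at 11.1% beside falling and 15.1% beside rising genes.

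One pair of the 91 genes stood side by side. Glyma13g25180 had -1.33, -1.46 and -2.43 in drought, against 1.88, 1.59 and 1.33 in well-watered plants, a difference of -3.34 ± 0.28 (SE). Glyma13g25190 had -2.13, -1.51 and -1.63 in drought, against 1.72, 1.51 and 1.56 in well-watered plants, a difference of -3.35 ± 0.20. The difference was alike in both, but the lowest drought value was that of plant 13 in Glyma13g25180 and of plant 11 in Glyma13g25190. Around them Glyma13g25170 fell by 1.07 on the log2 scale and Glyma13g25210 by 2.16 (limma, adjusted p = 0.00467 and 2.67e-05), while Glyma13g25200, directly after the pair, was not called. The next nearest pair was that of Glyma04g37690 and Glyma04g37790, at -4.43 and -3.47, with 9 genes between them. Over the 6 arrays the values of a pair correlated at 0.96 in the side-by-side pair and at 0.97 in the other, which mostly reflects the difference between groups by which the genes were chosen.

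A run of falling genes on chromosome 9 was picked out after its values were seen. Glyma09g37270 had -1.87, -1.04 and -2.81 in drought, against 1.52, 1.04 and 1.27 in well-watered plants, a difference of -3.19 ± 0.37 (SE). Its spread was wide in drought, and without drought plant 13 the difference was -2.74. Glyma09g37260, before it, was just outside the criterion, with -1.36, -1.25 and -1.55 in drought and 1.93, 1.54 and 1.25 in well-watered plants. Glyma09g37280, after it, fell by 2.36 ± 0.17 (limma, adjusted p = 1.64e-05) and Glyma09g37300 by 1.25 ± 0.17 (adjusted p = 0.000625), whereas Glyma09g37290 between them was not called. Falls beside other genes of the 91 were those of Glyma08g21410, at -2.90 next to Glyma08g21420, of Glyma19g05770, at -2.32 next to Glyma19g05760, of Glyma13g28660, at -2.25 next to Glyma13g28670, and of Glyma06g10700, at -2.04 next to Glyma06g10710, all called lower by limma.

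On chromosome 16 a falling gene stood beside a gene that rose strongly, a place also picked out after the values were seen. Glyma16g02400 had -2.27, -1.77 and -2.06 in drought, against 1.77, 2.27 and 2.06 in well-watered plants, a difference of -4.07 ± 0.20 (SE) or 16.8-fold lower. Directly before it, Glyma16g02390 had 3.201, 3.503 and 3.237 in drought, against -4.23, -3.20 and -3.89 in well-watered plants, a rise of 7.09 ± 0.25 on the log2 scale (limma, adjusted p = 4.24e-07). In both genes all drought plants were clear of all well-watered plants, which in Glyma16g02400 was fixed by the choice of the genes. The gene after the pair, Glyma16g02410, had a difference of -0.08 and was not called. The other 2 immediate neighbours called higher were GmNAC062 (Glyma08g19300), a member of the NAC transcription factor family, at 1.04 ± 0.18 (adjusted p = 0.00248) next to Glyma08g19290, and Glyma18g12640, at 1.49 ± 0.19 (adjusted p = 0.000428) next to Glyma18g12660.

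**Figure D5:**
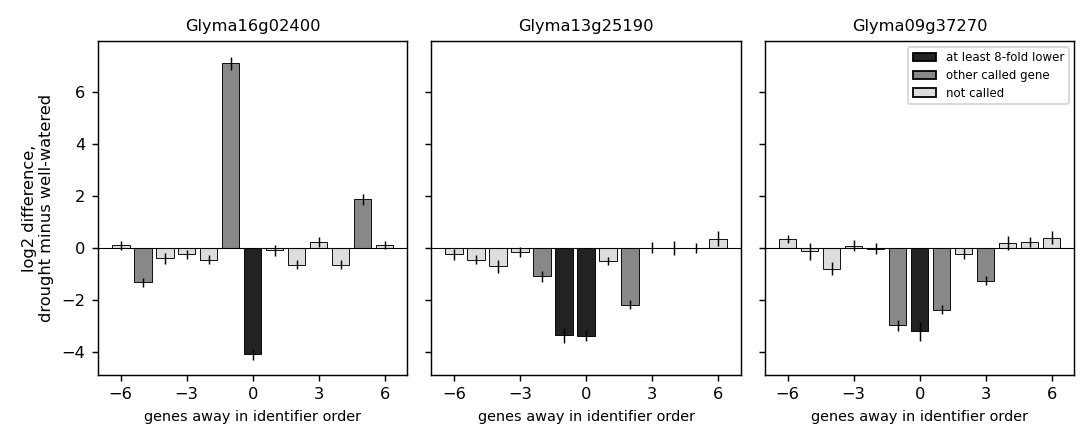
Log2 difference of drought minus well-watered leaves (vertical axis, bars with SE, n = 3 per group) for the genes up to 6 places away in identifier order (horizontal axis, 0 is the gene in the panel title) on chromosomes 16, 13 and 9. Black bars are genes of the 91, grey bars other called genes and pale bars genes not called. A rise of 7.09 stands beside the difference of -4.07 at Glyma16g02400, and falls cluster around Glyma13g25190 and Glyma09g37270.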

How the data were processed

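Arrays of leaves of 3 drought-stressed and 3 well-watered plants were analysed, grouped by the treatment in the labels. The authors ran RMA for gene levels in Affymetrix Expression Console, leaving out its normalization, and scaled the log2 values of each array to the 75th percentile in GeneSpring 11. The submitters' processing notes name RMA and Expression Console as well but give no version. The deposited log2 values are in addition centred on the median of each gene over the 6 arrays (largest absolute row median 5e-07), which removes absolute signal, so that signal over background is unknown. A second deposited table gives the authors' own test of drought over well-watered leaves, with a fold change, a p-value and its corrected value per gene. These columns were not used.

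The values were used as deposited. For the comparison of treatments a linear model without further covariates was fitted in limma 3.58.1 (R 4.3.3; lmFit, eBayes). P-values were adjusted over 66184 genes after Benjamini-Hochberg. Standard errors are moderated ones. The fit was tested on simulated data. Genes were placed by chromosome and order from their Glyma1 identifiers, and a RefSeq table of 59048 soybean genes held 0 of them. Descriptions by sequence similarity came from a shortened copy of the study's supplementary tables that reaches over part of chromosome 1, so that other genes stay undescribed here.

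The 91 genes, the lists and the tests were chosen with earlier results of these data known. Named are the described gene, the 6 largest falls, the 3 genes on each side of the criterion, genes side by side and the 2 widest spreads in each group. Others were named after their values were seen. The alternatives were subtracted array medians, array weights, quantile normalization, no fold criterion, the methods' t-test (equal variances), other limits of the rule, probe sets with shared values counted once, 2 neighbours on each side, and leaving out each array. An intensity trend and a filter on dim probe sets could not be applied to centred values.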

Additional observations from a re-analysis of the deposited data

How the results depend on the processing

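The number of genes meeting the criteria was 137 after quantile normalization, 229 with a limit of -2.5 and 38 with a limit of -3.5. It ran between 87 and 109 when 1 array was left out. Quantile normalization kept all 91 genes and added 46, array weights kept 81 of them, and 79 remained when well-watered plant 1 was left out, 85 when drought plant 13 was. The genes standing side by side numbered 2, against 6 after quantile normalization, 4 with array weights and 0 to 4 when 1 array was left out (0 without drought plant 13, and 4 without drought plant 12 or without either of well-watered plants 1 and 4). Over all genes, 2041 were called lower by the methods' t-test and 6583 without the fold criterion, against 3065. The median difference of the 91 genes lay between -3.54 and -3.41 when 1 array was left out. Of 209 values of 19 named genes under the alternatives, 205 kept direction and call, 4 lost the call under the methods' t-test and 0 changed direction. All 19 had falls near or beyond 8-fold without overlap between groups, so leaving out an array could not turn their direction. A call needs only 2-fold, so these counts are a description and no separate support. No paired analysis was possible because no number is used in both groups. An intensity trend and a filter on dim genes, which need uncentred values, were not run. With 3 plants per group, 1 plant can carry a gene across the criterion, and the cause of these shifts was not tested.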

Other observations

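On chromosome 1, where descriptions were at hand, genes were counted by keyword in 13 lists. Of 18 hormone-related genes 5 were called lower in drought and 0 higher, with a median log2 difference of -0.37. Another list took 31 genes by the words nodulin, vegetative storage, seed storage or embryo. Of these 31, 6 were lower and 0 higher (median -0.28). Of 4 photosynthesis genes 1 was lower and 0 higher (median -0.88). Of 31 defence genes 0 were lower, 4 were higher and 27 were not called (median 0.25). The 31 cell wall genes had 2 lower and 1 higher, and their lowest was Glyma01g40460 at -2.77, similar to xyloglucan endotransglycosylases, which loosen and rebuild walls in growing cells. Among 160 genes with transcription factor keywords 14 were lower and 8 higher, and among 43 receptor-like kinases 4 were lower and 8 higher. Cytochrome P450 and glycosyl transfer genes had 4 lower and 3 higher of 34, and transport genes 1 lower and 3 higher of 49. Peroxidases and laccases had 2 lower and 1 higher of 17, and cell division and cytoskeleton genes 2 lower and 1 higher of 24. Lipid and cuticle genes had 1 lower and 1 higher of 23, and nitrogen and amino acid metabolism genes 0 lower and 2 higher of 11. Over all 1849 genes in the shortened annotation 112 were lower and 102 higher, with a median of 0.01. An entry naming a sequence similarity was at hand for 1629 of the 1849. The lists cover part of the genome and were counted, not tested.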
